A study of Mus musculus with 25 samples.

Results

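Hematopoietic stem cells with mutant JAK2 and no Il1b were compared with stem cells that carry the same mutation and an intact Il1b gene, 4 weeks after the mutation was switched on. The members are the 4-week libraries of these 2 genotypes, 3 a side and chosen by their labels, so 6 of the 25 libraries of the series. Donor marrow of 4 genotypes had been engrafted into mice, tamoxifen followed 16 weeks later, and bone marrow stem cells in the Lin-Sca1+cKit+CD48-CD150+ gate were sorted for polyA RNA sequencing. Group VF_4w (libraries 5, 6 and 7) has the genotype SclCre;V617F with GFP. Group Il1bKO_4w (also 5, 6 and 7) has SclCre;V617F with IL-1b-/- and GFP. For reference, 3 libraries labelled Il1r1KO_4w (IL-1R1-/- on the same background) and 4 each of VF_2w and Il1bKO_2w were used. Tamoxifen, SclCre, V617F and GFP are common to all of these groups by label, so none of them is a reference group without V617F. The SclCre;GFP libraries without V617F (WT_2w) are of 2 weeks only. The 2 times were also the 2 processing batches.

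Several limits of the model come with the labels. SclCre is a Cre under regulatory sequence of the stem cell gene Scl (Tal1), and the recombined cells sit in a recipient whose own Il1b genotype, age and sex are not given in the sources used here. The stated gate does not name GFP, so whether stem cells of the recipient were sorted with those of the donor cannot be told apart. Each library is described as coming from mice and carries a number, and nothing says how many animals it holds, so the p-values measure the spread between libraries. In such bulk samples, fewer cells of a type and less RNA per cell cannot be told apart.

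IL-1β is a secreted inflammatory cytokine made as an inactive precursor, which caspase-1 cleaves in the inflammasome. It binds the receptor IL-1R1, which with its partner IL1RAP passes the signal through MyD88 and IRAK kinases to NF-kB. JAK2 V617F is an activating change in a cytokine receptor kinase that drives myeloproliferative neoplasms and switches on STAT transcription factors without ligand. Interferon gamma signals through JAK1 and JAK2, which turns on guanylate-binding proteins, immunity-related GTPases, antigen presentation genes and the feedback inhibitor Socs1. Hematopoietic stem cells themselves respond to interferons, and a share of them is primed toward megakaryocytes, the cells that make platelets.

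Serpina3f and other interferon gamma genes carry much of the account that follows, so the start regions of 5 of them are printed. Each is the 250 bases before the annotated start, 5′ to 3′ on the gene's strand, from RefSeq (GRCm38.p6, which is mm10). Capitals mark matches to a paired GAAA pattern (GAAA, any 2 bases, GAAA), which interferon regulatory factors read, or TTCNNNGAA, the palindrome read by STAT dimers. Both strands were searched, and matches may overlap.
Serpina3f (chr12:104214294-104214543, + strand): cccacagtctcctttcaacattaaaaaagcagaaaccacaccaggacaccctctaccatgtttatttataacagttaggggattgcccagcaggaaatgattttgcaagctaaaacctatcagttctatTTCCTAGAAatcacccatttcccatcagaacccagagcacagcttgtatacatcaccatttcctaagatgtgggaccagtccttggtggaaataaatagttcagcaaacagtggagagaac
Cxcl10 (chr5:92348890-92349139, - strand): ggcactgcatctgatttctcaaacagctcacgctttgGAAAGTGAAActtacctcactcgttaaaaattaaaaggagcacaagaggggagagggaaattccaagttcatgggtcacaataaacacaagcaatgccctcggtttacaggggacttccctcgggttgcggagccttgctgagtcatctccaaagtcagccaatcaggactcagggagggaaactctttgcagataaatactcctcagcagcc
Gbp2 (chr3:142620413-142620662, + strand): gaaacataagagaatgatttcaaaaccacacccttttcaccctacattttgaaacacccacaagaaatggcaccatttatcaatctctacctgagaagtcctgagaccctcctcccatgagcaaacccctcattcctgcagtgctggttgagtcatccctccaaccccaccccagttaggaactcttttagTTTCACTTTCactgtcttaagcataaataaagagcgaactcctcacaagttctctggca
Socs1 (chr16:10785537-10785786, - strand): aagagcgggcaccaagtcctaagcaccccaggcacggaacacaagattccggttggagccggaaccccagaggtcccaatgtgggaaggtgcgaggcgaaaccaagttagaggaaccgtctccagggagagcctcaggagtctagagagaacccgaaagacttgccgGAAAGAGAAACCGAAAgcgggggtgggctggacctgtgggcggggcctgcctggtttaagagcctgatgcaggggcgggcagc
Irf1 (chr11:53769764-53770013, + strand): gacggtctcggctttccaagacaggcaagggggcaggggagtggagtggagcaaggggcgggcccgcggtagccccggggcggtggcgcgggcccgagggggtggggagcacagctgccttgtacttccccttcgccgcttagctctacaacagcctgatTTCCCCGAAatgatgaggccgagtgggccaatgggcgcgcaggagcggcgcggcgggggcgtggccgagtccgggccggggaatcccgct
In Cxcl10 and Socs1 the capitals are the paired GAAA pattern on the gene's strand, with 2 overlapping matches in Socs1. In Gbp2 the same pattern lies on the other strand. Serpina3f and Irf1 hold TTCNNNGAA. These 5 were printed because they hold a match; the entries of Cxcl9 and Psmb9 and the second entry of Irf1 hold neither pattern. Of the 49 genes of the interferon gamma list, 30 had an entry. Counting a gene when any of its entries matched, the paired GAAA pattern was present in 13 of the 30 (43.3%) and in 3.45% of all 26994 genes with an entry. TTCNNNGAA was present in 12 of the 30 and in 8.12% of all genes. Per start region of this length, the shares over all 32817 were 2.97% and 7.01%. Such a match is a description of letters and not evidence of binding.

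Library totals lay between 26607966 and 31968194 reads in VF_4w and between 27077619 and 40178173 in Il1bKO_4w. The stem cell genes Kit (590 to 832 CPM, read counts scaled to library size), Slamf1 (60.3 to 90.4 CPM), Mecom (146 to 264 CPM) and Hlf (178 to 421 CPM) were present in all 6. VF_4w 6 was the lowest of the 6 for Mecom, Hlf and Procr (43.2 CPM, others 73.8 to 204 CPM), and not for Kit, Slamf1, Ly6a or Fgd5. Cd48, whose protein the gate excludes, was at 5.15 to 13.6 CPM. Il1bKO_4w 5 and VF_4w 6 need naming before any result. The first was the deepest of the 25 and had reads for the fewest genes (11871, others 13039 to 13491). It held 0 reads for 1759 tested genes, of which 136 averaged over 10 CPM in the other 8 libraries of 4 weeks. For comparison, each of those 8 libraries lacked between 1 and 4 such genes. Examples are the circadian factor Tef (29.1 to 46.9 CPM in the other 5 libraries), the deubiquitinase Usp46 (36.7 to 53.1), and Apaf1, which builds the apoptosome (28.2 to 47.8). Conversely, Pcdhb2, a protocadherin, reached 17.1 CPM there and 0 in the other 5. In all, 430 genes were more than 2 times above the highest other 4-week library and 1617 were under 0.5 times the lowest, against 43 to 131 and 11 to 136 in the other libraries. VF_4w 6 correlated with the rest within the range of the other libraries (median r 0.924, others but Il1bKO_4w 5 from 0.914 to 0.951), and stood out in the interferon gamma and megakaryocyte genes.

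**Figure D1:**
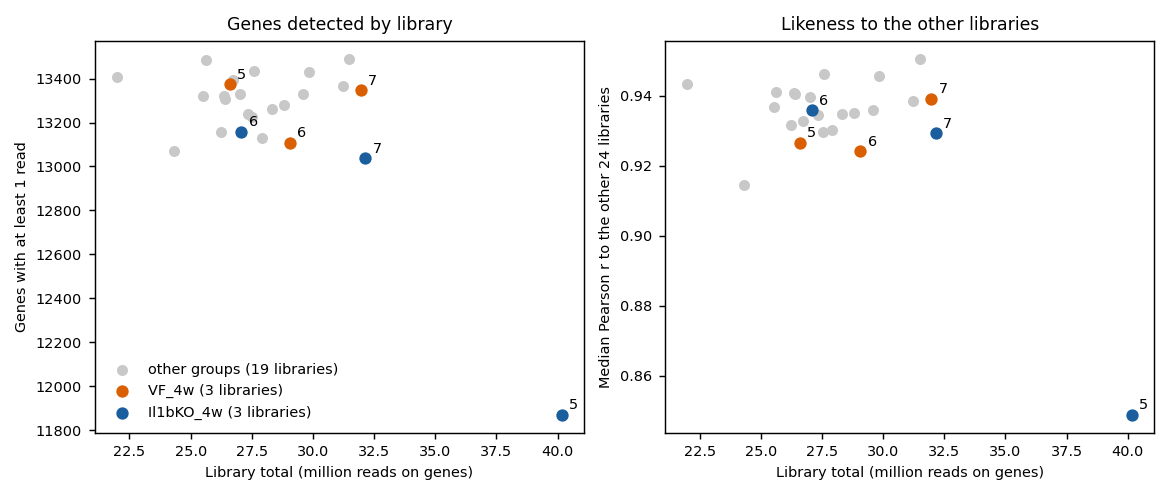
Each point is 1 of the 25 libraries, with its total of reads on genes on the x axis and, on the y axes, the number of genes with a read (left) and the median Pearson correlation of log2 CPM with the other 24 (right). Numbers mark the replicates of VF_4w (orange) and Il1bKO_4w (blue), and Il1bKO_4w 5 sits alone with 11871 genes and a median r of 0.849.

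The targeted gene was absent where the labels say so. Il1b (ENSMUSG00000027398, chr2:129364570-129371139 of mm10, - strand) had 0 reads in the 3 Il1bKO_4w libraries and 19, 391 and 1 reads in VF_4w 5, 6 and 7. At 0.721, 14.1 and 0.0312 CPM, nearly all Il1b RNA of the mutant group was in library 6. Against a floor of 3 reads over the group, Il1b was at least 164-fold lower without the gene, or at least 12.4-fold without VF_4w 6, yet the test did not pass (adjusted p = 0.124, edgeR quasi-likelihood test with Benjamini-Hochberg adjustment, used throughout unless another tool is named). Floors cover counting error only.

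Its receptor gene Il1r1 stood at 20.7, 9.48 and 14.3 CPM in VF_4w and 0.301, 12.6 and 13.8 CPM in Il1bKO_4w. Apart from Il1bKO_4w 5, with 12 reads, the groups overlapped (adjusted p = 0.651). In the libraries labelled Il1r1KO_4w it stood at 24.2, 9.79 and 17.6 CPM, not lower than VF_4w (log2 fold change 0.21, adjusted p = 0.949). The RNA level of the gene thus does not bear out that label. It cannot decide against it either, since which part of the gene the allele removes is not given in the sources used here. Of 23 tested genes of the IL-1 pathway 14 were lower and 9 higher, 0 passed, and the median log2 fold change was -0.12, beside -0.02 over all 13630 genes tested. Gsdmd, the pore through which IL-1β leaves cells, was at 58.4, 99.1 and 70.4 CPM in VF_4w and 136, 98.7 and 88.5 CPM without Il1b (adjusted p = 0.325). The median of 27 NF-kB and TNF target genes was -0.15, with 0 called. Their inhibitor Nfkbia was at 148, 226 and 152 CPM against 128, 101 and 116 CPM, without overlap but short of the threshold (adjusted p = 0.201).

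Among constructs, the table's CreERT2 sequence had 388, 195 and 225 CPM in VF_4w and 828, 634 and 445 CPM in Il1bKO_4w, so the groups did not overlap and the means differed by a ratio of 2.36. No test was made on constructs. The pEGFP sequence overlapped between the groups (489, 541 and 505 against 385, 519 and 530 CPM). Reads on the 2 parts of human JAK2 V617F overlapped between the groups: 116, 108 and 115 against 86.6, 65.8 and 110 CPM for exons 3 to 12, and 54.1, 60.8 and 43.6 against 99.7, 45.0 and 69.6 CPM for exons 13 to 25. The mouse gene Jak2 was at 103, 110 and 116 CPM in VF_4w and 64.8, 73.7 and 89.0 CPM in Il1bKO_4w, lower in each library but not called (log2 fold change -0.54, SE 0.20, adjusted p = 0.222).

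Between Il1bKO_4w and VF_4w 17 genes passed, which is 0.125% of those tested; 5 rose (0.0367%) and 12 fell (0.088%) without Il1b. All 17 had groups that did not overlap. Over all genes, every Il1bKO_4w library lay above every VF_4w library for 5.72% and below for 7.3%. An unadjusted p under 0.05 was reached by 2006 genes, 14.7%. DESeq2 called 375 (2.76%), among them all 17, whereas limma voom with quality weights called 0 (0.0%, with 1640 genes at an unadjusted p under 0.05). Fits of the 4-week libraries alone, or of the 2 groups alone, also called 0, with 704 genes (5.31%) and 603 genes (4.64%) at an unadjusted p under 0.05. In edgeR, calls were made only in fits that took the spread from the other groups and times as well.

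**Figure D2:**
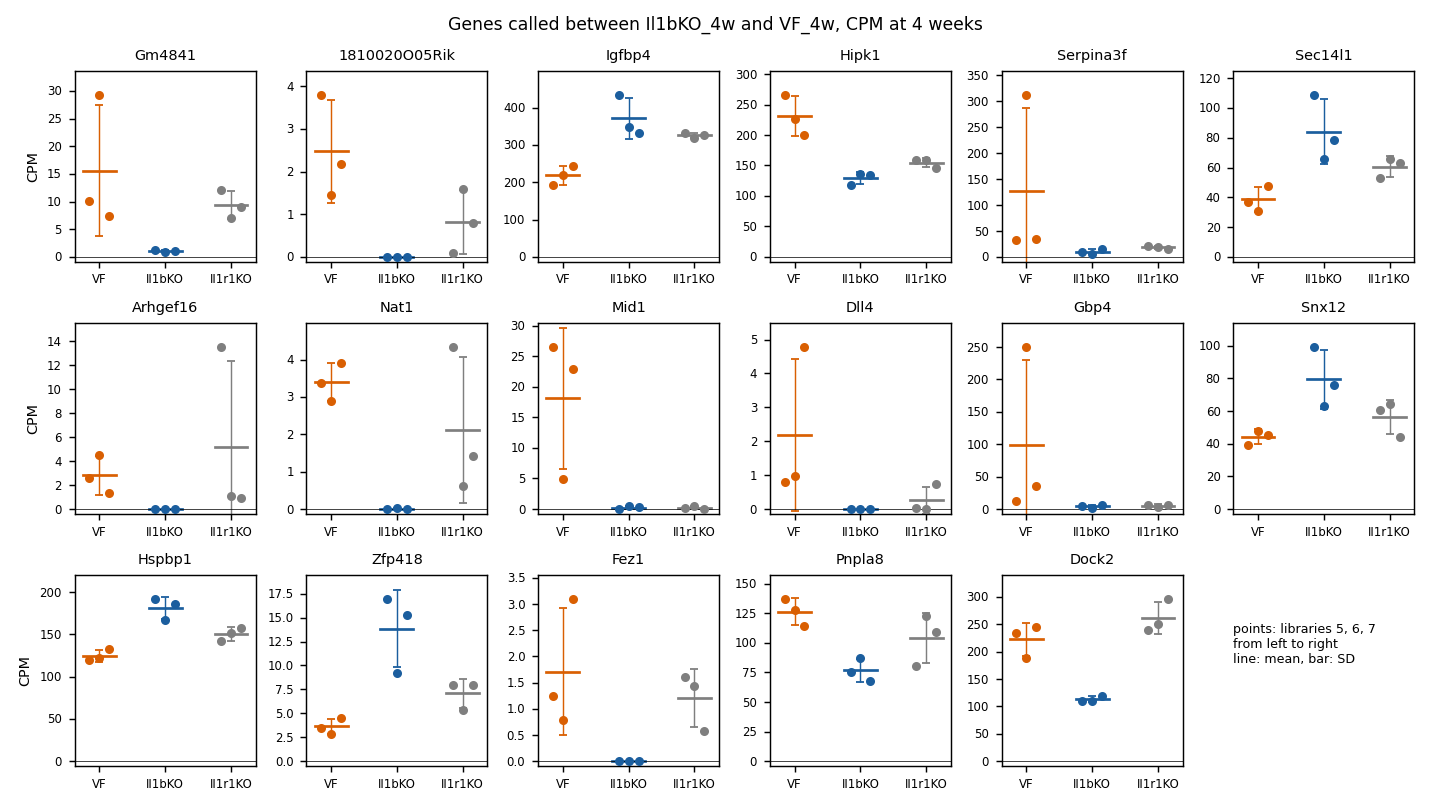
For the 17 called genes, the y axis gives CPM on a linear scale for VF_4w (orange), Il1bKO_4w (blue) and the libraries labelled Il1r1KO_4w (grey), with libraries 5, 6 and 7 as points from left to right, the mean as a line and the SD as a bar (n = 3, cut off at the axis where it would pass below 0). No blue point overlaps an orange one, while the high VF_4w values of Serpina3f (312 CPM) and Gbp4 (250 CPM) belong to library 6 alone.

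The 5 genes that rose were expressed in every library. Igfbp4 (ENSMUSG00000017493, chr11:99041244-99054392, + strand), a secreted protein that binds insulin-like growth factors, was at 192, 219 and 243 CPM in VF_4w and 433, 348 and 332 CPM in Il1bKO_4w. The highest value was that of Il1bKO_4w 5, and the other two also lay above every VF_4w library. Its log2 fold change was 0.77 (SE 0.11, adjusted p = 0.00249). It was still called without Il1bKO_4w 5 (0.64, adjusted p = 0.0363) and without VF_4w 6 (0.0174), and missed the threshold without both (0.0504).

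Sec14l1, a lipid-binding protein of the Sec14 family, was at 37.0, 31.0 and 47.9 CPM in VF_4w and 109, 65.6 and 78.3 CPM in Il1bKO_4w (1.12, SE 0.19, adjusted p = 0.0145). Snx12, a sorting nexin of endosomes, was at 39.1, 48.0 and 45.2 CPM against 99.1, 63.1 and 76.1 CPM (0.85, SE 0.16, adjusted p = 0.0213). In both, library 5 was again the highest of the Il1bKO_4w group, and the call was lost without it (adjusted p = 0.133 and 0.137). Sec14l1 also lost its call without VF_4w 6 (0.0645), and Snx12 without VF_4w 5 (0.0898) or VF_4w 7 (0.0601). Hspbp1, a nucleotide exchange factor of the chaperone HSP70, went from 125 CPM (SD 7.28, n = 3) to 181 CPM (SD 12.98, n = 3; adjusted p = 0.0349). The zinc finger gene Zfp418 went from 3.63 CPM (SD 0.809) to 13.8 CPM (SD 4.02; adjusted p = 0.0349). For Sec14l1 and Zfp418, VF_4w lay below every library of all other groups. Sec14l1 was at 57.5 to 72.9 CPM in VF_2w and 52.7 to 66.0 CPM in the libraries labelled Il1r1KO_4w. Zfp418 was at 6.39 to 7.85 CPM and 5.35 to 7.99 CPM in these 2 groups. Hspbp1 and Zfp418 lost the call when any of Il1bKO_4w 5, VF_4w 5, VF_4w 6 or VF_4w 7 was left out, with adjusted p of up to 0.137 and 0.134.

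Among the 12 genes that fell were the kinase gene Hipk1, Dock2 and Pnpla8, each with at least 2175 reads in every library. Hipk1 (ENSMUSG00000008730, chr3:103739815-103791563, - strand), a nuclear kinase of the homeodomain-interacting family, was at 265, 226 and 201 CPM in VF_4w and 118, 137 and 134 CPM in Il1bKO_4w. Its log2 fold change was -0.83 (SE 0.13, adjusted p = 0.00915, and 0.0796 without Il1bKO_4w 5). The 4 tested Hipk genes, Hipk1 among them, all had estimates below 0, as did 51.7% of all genes. Without Il1bKO_4w 5 this held for 3 of the 4, with Hipk2 at 0.19. Hipk3 (88.5, 81.6 and 72.3 against 59.7, 70.0 and 62.2 CPM) was not called (adjusted p = 0.418), nor were Hipk2 and Hipk4 (0.783 and 0.932). Dock2 (ENSMUSG00000020143, chr11:34226815-34783892, - strand), which activates the GTPase Rac in blood cells, was at 234, 189 and 244 CPM against 110, 110 and 119 CPM. The 3 Il1bKO_4w libraries were close together and well below the others (-0.98, SE 0.20, adjusted p = 0.0475). Pnpla8, a calcium-independent phospholipase, was at 137, 128 and 114 CPM against 75.4, 87.2 and 67.4 CPM (-0.72, SE 0.15, adjusted p = 0.0475). The Dock2 and Pnpla8 calls were each lost without Il1bKO_4w 5 (adjusted p = 0.137 in both), with log2 fold changes of -0.96 and -0.71. Dock2 also lost it without VF_4w 5 (0.0898) or VF_4w 7 (0.0867), and Pnpla8 without VF_4w 5 (0.101), VF_4w 6 (0.0716) or VF_4w 7 (0.0526).

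Interferon-induced genes were another group among the 12. Gm4841 (ENSMUSG00000068606), an interferon-inducible GTPase gene that is not in the interferon gamma list, was at 10.1, 29.3 and 7.49 CPM in VF_4w and 1.33, 0.886 and 0.992 CPM in Il1bKO_4w. The groups were separated by several fold in every library. Its log2 fold change of -3.86 (SE 0.49) had the lowest p of all genes (adjusted p = 7.48e-04). It also passed without Il1bKO_4w 5 (-4.05, adjusted p = 0.00396), without VF_4w 6 (-3.03, 0.004) and without both (-3.22, 0.00712). Gm4951, a related gene of that list, was at 35.6, 264 and 43.8 CPM against 84.7, 30.9 and 43.8 CPM (adjusted p = 0.297), and how reads were divided between such copies is not given in the sources used here.

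Serpina3f (ENSMUSG00000066363, chr12:104214544-104221129, + strand), a serine protease inhibitor induced by interferon, was at 33.3, 312 and 35.3 CPM in VF_4w and 9.39, 5.76 and 14.8 CPM in Il1bKO_4w. Gbp4 (ENSMUSG00000079363, chr5:105115767-105139586, - strand), a guanylate-binding GTPase of cell-autonomous immunity, was at 12.8, 250 and 36.0 CPM against 5.45, 1.70 and 6.29 CPM. VF_4w 6 stood far above the other mutant libraries in both genes, and the groups still did not overlap without it. Their log2 fold changes were -3.66 (SE 0.63, adjusted p = 0.0145) and -4.47 (SE 0.83, adjusted p = 0.0213). Without VF_4w 6 they were -1.78 (adjusted p = 0.0668) and -2.44 (0.11), and both calls were also lost without Il1bKO_4w 5 (0.137 in both). Serpina3f and Gbp4 belong to families of near-identical copies, and Gbp4 overlaps Gbp8 and Gbp9 on the same strand, so their levels are uncertain to that extent.

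Over the whole interferon gamma list, 40 of 45 tested members had estimates below 0, beside 51.7% of all genes, and 2 of them were called (Serpina3f and Gbp4). The median log2 fold change was -0.81, against -0.02 over all genes. Summed over the list, levels were 13510, 33360 and 14140 CPM in VF_4w 5, 6 and 7 and 16330, 12850 and 14050 CPM in Il1bKO_4w. VF_4w 6 was far above the other 5, which overlapped between the groups. It was the highest of the 6 for 39 of 45 members (86.7%, against 16.4% of all genes). Without VF_4w 6, 21 of 45 estimates were below 0 and the median was 0.01; without Il1bKO_4w 5 it was -0.91, and without both -0.06.

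Single members show the same dependence. Irf1, an interferon-induced transcription factor, was at 150, 440 and 118 CPM against 162, 122 and 128 CPM (-0.78, adjusted p = 0.249; 0.03 without VF_4w 6). The chemokine gene Cxcl10 was at 0.569, 73.0 and 8.46 CPM against 0, 0.996 and 1.92 CPM (adjusted p = 0.199). A few members were lower in each Il1bKO_4w library without being called. Socs1, the feedback inhibitor, was at 34.4, 67.3 and 42.2 CPM against 18.4, 20.9 and 28.2 CPM (-1.09, adjusted p = 0.0933). Gbp6 (17.9, 320 and 75.2 against 9.11, 2.25 and 8.80 CPM; adjusted p = 0.0751) and Gbp10 (6.45, 183 and 30.4 against 4.52, 1.03 and 3.13 CPM; adjusted p = 0.0849) had the pattern of Gbp4. In all, 9 of the 45 had Il1bKO_4w libraries below every VF_4w library and 0 above, beside 7.3% and 5.72% of all genes.

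**Figure D3:**
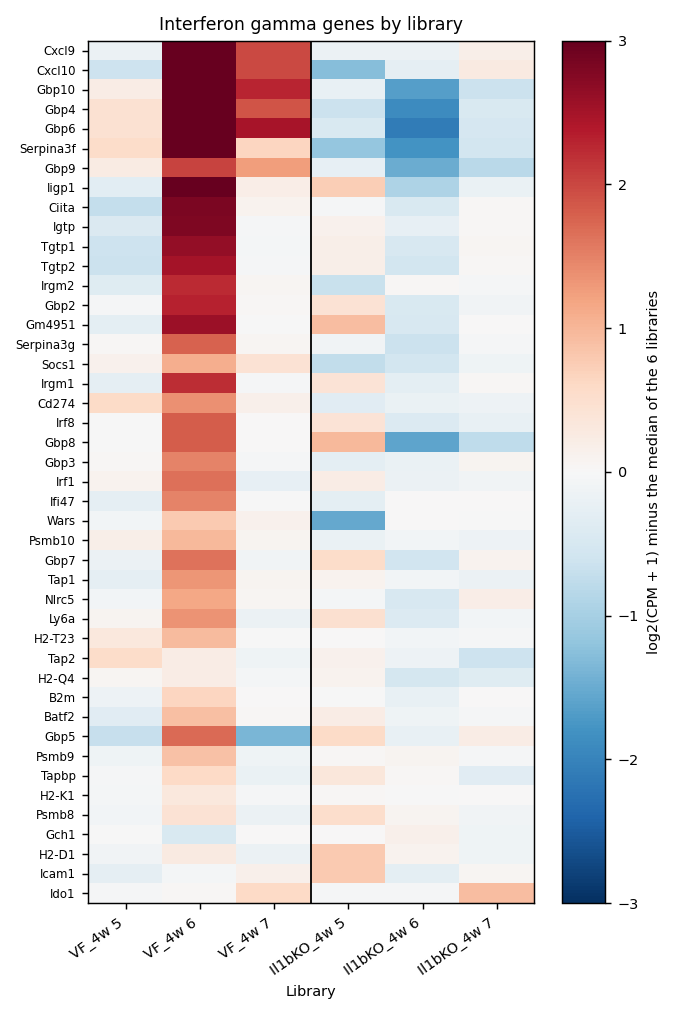
Rows are tested interferon gamma genes, all but 1 of the 45, ordered by log2 fold change and columns are the 6 libraries, with color giving log2(CPM + 1) minus the median of the 6. The red column is VF_4w 6, the library in which the list summed to 33360 CPM, while Gbp4, Gbp6, Gbp10 and Serpina3f near the top are blue in the Il1bKO_4w columns, most of all in library 6.

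Other interferon-related lists followed library 6 as well. Of 11 MHC class II genes, which present antigen, 9 had estimates below 0 and 0 were called, with a median of -1.24 that became 0.13 without VF_4w 6 and -0.24 without both. H2-Aa, a class II chain, was at 53.2, 469 and 65.8 CPM in VF_4w and 51.6, 36.6 and 48.9 CPM in Il1bKO_4w (adjusted p = 0.175). H2-DMb1, a chaperone of peptide loading, was at 86.1, 161 and 78.4 CPM against 35.3, 66.0 and 73.2 CPM (adjusted p = 0.106). Type I interferon genes had a median of -0.23 (46 tested, 33 below 0, 0 called), and 0.19 without VF_4w 6.

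Other lists were also highest in VF_4w 6. Genes of the unfolded protein response summed to 9591 CPM there and to 5825 to 7409 CPM in the other 5 libraries (25 of 27 below 0, median -0.18, and -0.03 without VF_4w 6, 0 called). Cholesterol synthesis genes summed to 1884 CPM there and to 1280 to 1491 CPM elsewhere (18 of 24 below 0, median -0.18, and 0.09 without it, 0 called). Among megakaryocyte genes, VF_4w 6 was the highest of the 6 libraries for 66.7%. Of 33 tested, 27 had estimates below 0, with a median of -0.72 and 0 called. Their summed level was 4486, 9653 and 4758 CPM in VF_4w and 3834, 4044 and 4384 CPM in Il1bKO_4w, so the groups did not overlap, and VF_4w 6 lay far above all the others. The platelet chemokine gene Pf4 was at 39.8, 1073 and 75.8 CPM against 79.0, 77.6 and 72.5 CPM. The median without VF_4w 6 was -0.10, and 0.00 without both.

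Some megakaryocyte genes nevertheless separated the groups in every library. Itgb3, the platelet fibrinogen receptor chain, was at 202, 225 and 118 CPM in VF_4w and 18.2, 36.9 and 63.5 CPM in Il1bKO_4w (-2.20, SE 0.55, adjusted p = 0.0941). Thbs1, the platelet granule protein thrombospondin, was at 117, 48.3 and 64.1 CPM against 0.0502, 7.75 and 14.5 CPM (-3.37, SE 0.96, adjusted p = 0.13). Rgs18, a regulator of G protein signaling in platelets, was at 732, 645 and 507 CPM against 361, 386 and 464 CPM (-0.64, SE 0.14, adjusted p = 0.0751). Without VF_4w 6 the log2 fold changes of these 3 were -2.02, -3.61 and -0.62. None of the 3 passed the edgeR test (adjusted p = 0.353, 0.291 and 0.267 without Il1bKO_4w 5). The other tools disagreed: DESeq2 gave adjusted p of 0.00751, 0.0301 and 0.00241, and limma voom with quality weights gave 0.3, 0.207 and 0.263. In all, 7 of the 33 had Il1bKO_4w below VF_4w in every library, and 2 above, beside 7.3% and 5.72% of all genes.

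**Figure D4:**
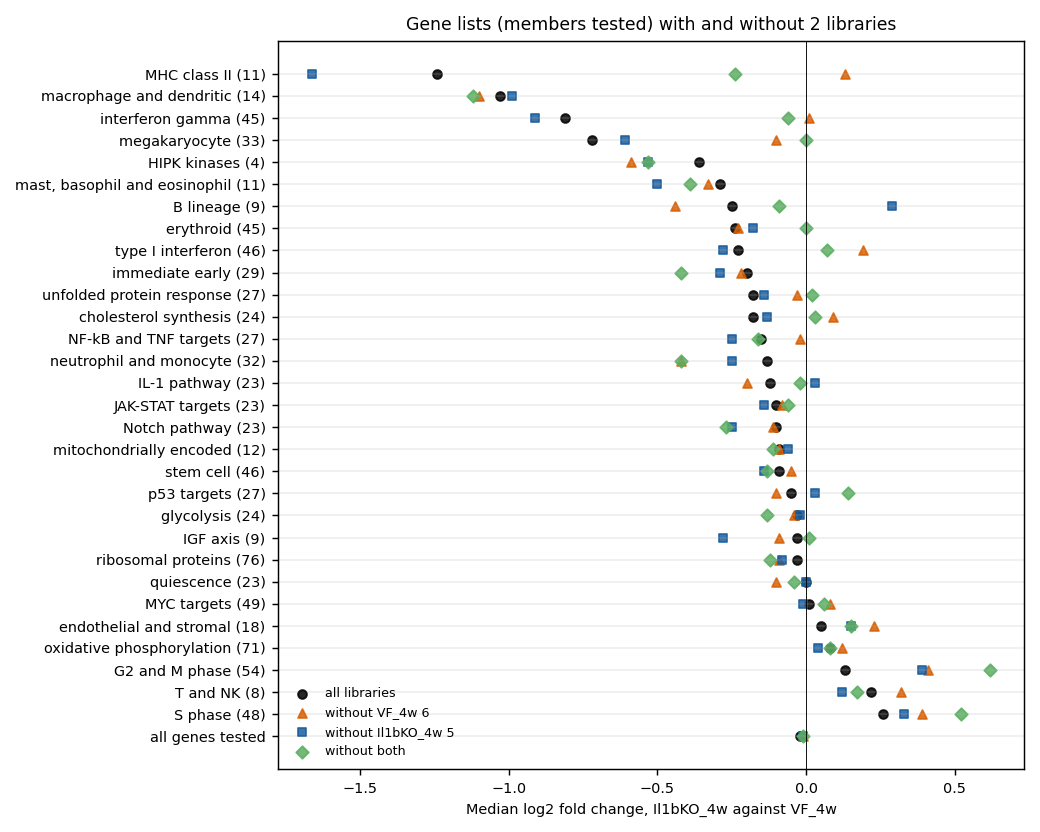
For 30 gene lists (number of tested members in brackets) and all genes, the x axis gives the median log2 fold change of Il1bKO_4w against VF_4w in the fit of all libraries (black) and without VF_4w 6 (orange), Il1bKO_4w 5 (blue) or both (green). The MHC class II, interferon gamma and megakaryocyte medians (-1.24, -0.81 and -0.72) lie near 0 in orange, while the S phase and G2 and M phase medians move up in green.

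The JAK-STAT list, which shares Socs1 with the interferon gamma list, held 0 called members (23 tested, 15 below 0, median -0.10). Pim1, a survival kinase induced by STAT5, was at 394, 182 and 314 CPM in VF_4w and 119, 139 and 180 CPM in Il1bKO_4w, without overlap (-1.02, SE 0.28, adjusted p = 0.116). The feedback gene Cish overlapped between the groups (92.9, 59.8 and 140 against 34.7, 67.2 and 86.4 CPM; adjusted p = 0.445). So did Socs2 (173, 104 and 154 against 260, 140 and 216 CPM; adjusted p = 0.388). Echdc2, a mitochondrial enzyme of the enoyl-CoA hydratase family, was at 502, 292 and 479 CPM against 956, 653 and 521 CPM, above VF_4w in every library but not called (0.74, SE 0.22, adjusted p = 0.132).

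Cell cycle lists had medians above 0. Of 48 S phase genes 38 had estimates above 0 (median 0.26, beside 48.0% above 0 over all genes), as did 42 of 54 G2 and M phase genes (median 0.13), with 0 called in either. Summed G2 and M phase levels were 3991, 6693 and 5192 CPM in VF_4w and 3995, 7223 and 6233 CPM in Il1bKO_4w. The ranges overlapped almost entirely, and the lowest library of each group sat at the same level, which in Il1bKO_4w was library 5. Without Il1bKO_4w 5 and VF_4w 6 the medians were 0.52 and 0.62, still with 0 members called. In that fit 0 of the 48 S phase and 1 of the 54 G2 and M phase estimates were below 0, beside 6955 of all 13640 genes. Mcm3, a subunit of the replicative helicase, was at 197, 341 and 260 CPM against 399, 452 and 331 CPM (adjusted p = 0.273), and Foxm1, the mitotic transcription factor, at 16.7, 37.9 and 19.2 CPM against 37.2, 58.7 and 30.9 CPM (adjusted p = 0.364). Of 46 stem cell genes 27 were below 0 (median -0.09, 0 called). Esam, an adhesion molecule of stem cells, was at 73.5, 118 and 154 CPM against 290, 176 and 172 CPM (0.89, SE 0.23, adjusted p = 0.113, and 0.401 without Il1bKO_4w 5). Of the 4 members of lowest p, Robo4 also had an estimate above 0 (0.91, adjusted p = 0.236). Itga2b and Bmi1 had estimates below 0 (-1.45 and -0.58, adjusted p = 0.163 and 0.241).

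The remaining 6 called genes were at or near 0 in Il1bKO_4w, and all of them but Mid1 were detected in VF_4w at low levels. Dll4 (ENSMUSG00000027314, chr2:119325784-119335962, + strand), a ligand of Notch receptors, had 21, 27 and 153 reads in VF_4w (0.796, 0.977 and 4.77 CPM) and 0 in each Il1bKO_4w library. It was at least 72.2-fold lower (at least 29.3-fold without VF_4w 7; adjusted p = 0.0213), a call lost without VF_4w 7 (0.0526) or Il1bKO_4w 5 (0.133). The noncoding gene 1810020O05Rik (ENSMUSG00000089997, chr6:87675593-87690847, - strand) had 100, 40 and 70 reads against 0 in all 3, at least 81.8-fold lower (adjusted p = 0.00249). It kept its call without Il1bKO_4w 5 (adjusted p = 0.033) and without VF_4w 6 (0.004). Without both, the adjusted p was 0.026.

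Arhgef16, a guanine nucleotide exchange factor, had 68, 126 and 42 reads against 0 in all 3 Il1bKO_4w libraries (at least 93.1-fold, adjusted p = 0.0145). Fez1, an adaptor of kinesin transport, had 33, 22 and 99 reads against 0 in all 3 (at least 56.6-fold, or 33.8-fold without VF_4w 7; adjusted p = 0.0472). Nat1, an N-acetyltransferase, had 89, 80 and 125 reads against 0, 1 and 0 (adjusted p = 0.0156). The separation from VF_4w was complete in these genes, yet each lost its call without Il1bKO_4w 5 (adjusted p = 0.115, 0.137 and 0.133), and Fez1 also without VF_4w 7 (0.0678). Of the 13630 genes tested, 59 had reads in every VF_4w library and none in Il1bKO_4w, with a median of 0.819 CPM in VF_4w. The reverse held for 1 gene. Il1bKO_4w 5, with 0 reads for 1759 tested genes, makes the first count easier to reach and the second harder. Leaving it out gave 66 and 5, with fewer Il1bKO_4w than VF_4w libraries. The 2 directions were thus not counted on equal terms. At 2 weeks the 4 Il1bKO_2w libraries together held 422 reads of Dll4, 253 of Arhgef16 and 171 of 1810020O05Rik.

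Mid1 (ENSMUSG00000035299, chrX:169685199-170005736, + strand), a microtubule-associated ubiquitin ligase, was at 26.5, 4.88 and 22.9 CPM in VF_4w and 0, 0.480 and 0.279 CPM in Il1bKO_4w (-6.19, SE 1.10, adjusted p = 0.0156). It was called without VF_4w 6 (0.0174) and without both libraries (0.028), and not without Il1bKO_4w 5 alone (0.0796). Across the other groups, Mid1 was at 0.198 to 0.533 CPM in Il1bKO_2w, at 13.6 to 26.6 CPM in VF_2w, at 25.7 and 29.7 CPM in WT_2w 1 and 2, and at 1.53 and 4.07 CPM in WT_2w 3 and 4. WT_2w 3 and 4, without V617F and with intact Il1b, thus lay below every VF_4w and VF_2w library and above every Il1bKO_4w and Il1bKO_2w library. The libraries labelled Il1r1KO_4w, at 0.0764 to 0.434 CPM, lay within the range of the libraries without Il1b. Of the 17 called genes, 9 overlap another annotated gene (for Dock2, Fam196b on the opposite strand), and since the libraries were unstranded such reads cannot be told apart.

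**Figure D5:**
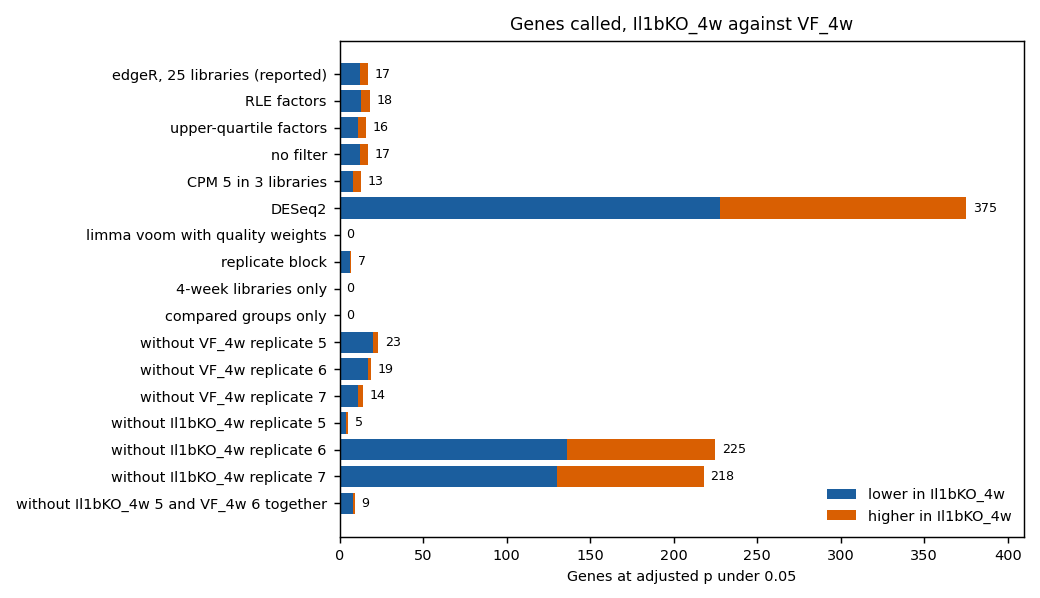
Bars give the number of genes at adjusted p under 0.05 in Il1bKO_4w against VF_4w, lower in blue and higher in orange, for the reported fit and each other tool, filter or left-out library of the 2 groups. The reported 17 become 5 without Il1bKO_4w 5, 225 without Il1bKO_4w 6, 218 without Il1bKO_4w 7 and 0 in 3 of the settings.

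Single libraries moved the count of calls strongly. Leaving out Il1bKO_4w 5 gave 5 calls (0.0367%), of which 3 were among the 17 (Gm4841, 1810020O05Rik and Igfbp4); leaving out VF_4w 6 gave 19 (0.139%, 11 shared). Leaving out both gave 9 (0.066%, 3 shared: Gm4841, 1810020O05Rik and Mid1). When Il1bKO_4w 6 or 7 was left out, so that library 5 made up 1 of 2, the counts were 225 (1.65%) and 218 (1.6%), with all 17 in each and 62 genes in both. Dennd4a, a regulator of Rab GTPases, was at 196, 154 and 152 CPM in VF_4w and 113, 62.8 and 80.6 CPM in Il1bKO_4w and was called without Il1bKO_4w 5 (adjusted p = 0.0467) and without both (0.0441), against 0.0751 with all libraries. Klf9, a glucocorticoid-induced transcription factor, was at 161, 45.3 and 87.1 CPM against 65.0, 44.0 and 54.5 CPM and was called without VF_4w 6 (0.0271) and without both (0.026). In Klf9 it was VF_4w 6 that overlapped with the Il1bKO_4w libraries.

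Markers of other blood cells differed between libraries, with some at 0 and others high in 1 library, and their part in the results was not tested. The 14 tested macrophage and dendritic genes had a median of -1.03 (12 below 0, 0 called), and -1.10, -0.99 and -1.12 without VF_4w 6, Il1bKO_4w 5 and both. Their summed level was 497, 312 and 292 CPM in VF_4w and 246, 265 and 283 CPM in Il1bKO_4w. The groups did not overlap, but the lowest VF_4w sum lay close to the highest Il1bKO_4w sum. Flt3 alone gave 220.3 CPM of the sum in VF_4w 5. It was at 15.01 and 26.06 CPM in VF_4w 6 and 7, and at 22.49, 23.91 and 38.27 CPM in Il1bKO_4w. Among the 3 members with an unadjusted p under 0.05, Zbtb46 averaged 4.219 CPM in VF_4w, Mertk 0.7588 CPM and Ccr9 0.3141 CPM. Of the defining markers of this list, Cd68 was at 40.7, 5.71 and 23.1 CPM against 19.9, 9.26 and 10.2 CPM, and Siglech was at 0 in 5 of the 6 libraries. Neutrophil and monocyte genes summed to 795 to 1532 CPM in VF_4w and 1162 to 1193 CPM in Il1bKO_4w (median -0.13), with S100a8 at 0.506 to 2.31 CPM throughout. Erythroid genes summed to 4167 to 4876 CPM and 3802 to 4215 CPM (median -0.24). Hba-a1 alone ranged from 0.868 to 262 CPM in VF_4w and from 1.43 to 33.1 CPM in Il1bKO_4w. The basophil protease gene Prss34 was at 0, 0.289 and 44.8 CPM in VF_4w and 0 in the Il1bKO_4w libraries, so its RNA was nearly all in VF_4w 7. Cpa3, of the same list, was at 9.03, 6.73 and 8.83 CPM against 26.6, 8.12 and 7.78 CPM.

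The neighbors of the targeted gene were examined as well. Within 1 Mb of Il1b 15 genes were tested and 0 were called; the lowest adjusted p was that of the phagocyte receptor gene Mertk (0.872, 0 and 1.40 CPM against 0, 0.148 and 0 CPM; 0.238). Of those 15, 3 had an unadjusted p under 0.05, beside 14.7% of all genes tested. Within 10 Mb 170 genes were tested and 0 were called (lowest adjusted p 0.134, 33 at an unadjusted p under 0.05). The called gene Dll4 (chr2:119325784-119335962) lies on the same chromosome, just outside this window.

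The same genotypes at 2 weeks, 4 libraries each, gave a comparison that shares no library with the 4-week one. There 1 gene was called (0.00734% of those tested, 186 or 1.36% at an unadjusted p under 0.05, 15 or 0.11% by DESeq2), Mid1 (-5.80, SE 0.93, adjusted p = 0.0318), and leaving out any 1 of the 8 libraries ended that call. Of the 17 genes, 13 had the same sign at 2 weeks, beside 51.7% of all genes. The median size of their log2 fold change was 3.66 at 4 weeks and 0.24 at 2 weeks. Dock2 was at 241 CPM (SD 30.9) in VF_2w and 140 CPM (SD 16.4) in Il1bKO_2w (n = 4 each; -0.78, SE 0.17, adjusted p = 0.305), with an unadjusted p of 0.00015. Igfbp4 was at 238 CPM (SD 14.7) and 240 CPM (SD 27.2), Hipk1 at 195 CPM (SD 6.84) and 185 CPM (SD 33.9), and Serpina3f at 19.1 CPM (SD 6.57) and 27.1 CPM (SD 2.83), none of them with an unadjusted p under 0.05. Echdc2 was higher without Il1b at this time too (382 CPM, SD 51.3, against 670 CPM, SD 71.6; 0.81, SE 0.19, adjusted p = 0.333).

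Whether the Il1b difference itself differed between the times was tested as an interaction, and 2 genes passed (0.0147%, with 1128 or 8.28% at an unadjusted p under 0.05). Gm4841 was at 9.93 CPM (SD 2.06) in VF_2w and 8.74 CPM (SD 3.21) in Il1bKO_2w, so its difference was -0.18 at 2 weeks and -3.86 at 4 weeks (adjusted p = 0.0375). 1810020O05Rik was at 2.51 CPM (SD 0.974) and 1.496 CPM (SD 0.813) at 2 weeks, a difference of -0.75 (adjusted p of the time difference 0.0391). Both calls were lost without Il1bKO_4w 5, VF_4w 6, Il1bKO_2w 2, Il1bKO_2w 4 or any VF_2w library, and that of 1810020O05Rik also without VF_4w 5, VF_4w 7 or Il1bKO_2w 1 (adjusted p of up to 0.119 for Gm4841 and 0.158 for 1810020O05Rik). Time and batch cannot be told apart. For Igfbp4, Hipk1 and Serpina3f the time difference did not pass (adjusted p = 0.127, 0.281 and 0.106).

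Il1bKO_4w was also tested directly against the libraries labelled Il1r1KO_4w, whose Il1r1 RNA was not reduced (24.2, 9.79 and 17.6 CPM, against 20.7, 9.48 and 14.3 CPM in VF_4w). The comparison gave 16 called genes (0.117%, with 8 higher and 8 lower in Il1bKO_4w or 0.0587% each, and 2107 or 15.5% at an unadjusted p under 0.05), 5 of them among the 17: Gm4841, 1810020O05Rik, Arhgef16, Nat1 and Dock2. Gm4841 was at 12.1, 7.01 and 9.06 CPM in the libraries labelled Il1r1KO_4w, all above the Il1bKO_4w libraries (-3.13, SE 0.47, adjusted p = 0.00461). Dock2 was at 240, 251 and 296 CPM there, more than 2 times each Il1bKO_4w library (-1.22, SE 0.20, adjusted p = 0.00813). Purb, a single-stranded DNA-binding protein, was at 64.4, 72.9 and 73.8 CPM in Il1bKO_4w and 130.2, 128.5 and 125.9 CPM in those labelled Il1r1KO_4w (-0.87, SE 0.13, adjusted p = 0.00486). Higher in Il1bKO_4w were the mitochondrial transport adaptor Trak2 (73.3, 53.5 and 53.1 against 31.8, 23.3 and 23.05 CPM; adjusted p = 7.31e-04) and Cpt1a, the entry enzyme of mitochondrial fatty acid oxidation (264, 145 and 176 against 97.0, 110 and 119 CPM; adjusted p = 0.0234). For Trak2, VF_4w (66.8, 69.4 and 54.8 CPM) lay with Il1bKO_4w.

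For the other called genes the libraries labelled Il1r1KO_4w can be set beside Il1bKO_4w, with the VF_4w libraries shared by both differences (20 genes, 0.147%, were called in Il1r1KO_4w against VF_4w). Igfbp4 was at 333, 318 and 325 CPM in the libraries labelled Il1r1KO_4w, above every VF_4w library (0.58 against VF_4w, adjusted p = 0.035, beside 0.77 for Il1bKO_4w). The direct difference, Il1bKO_4w against those libraries, was 0.19 (SE 0.11, adjusted p = 0.397). Gbp4 was at 6.47, 2.82 and 6.08 CPM (-4.28, adjusted p = 0.035, beside -4.47), and the direct difference was -0.19 (SE 0.74, adjusted p = 0.925). Mid1 was at 0.223, 0.434 and 0.0764 CPM (-6.18, adjusted p = 0.0268, beside -6.19; direct -0.02, SE 0.995). Hipk1 (159, 159 and 146 CPM) and Serpina3f (21.96, 18.75 and 15.5 CPM) lay below every VF_4w library without a call (adjusted p = 0.0814 and 0.0731). A direct difference short of the threshold does not show that the 2 groups are alike.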

How the data were processed

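Stem cell RNA was sequenced in 25 libraries. The authors deposited read counts per gene (13641 genes and 4 constructs). Per the labels, libraries were made with SMART-Seq v4 and were unstranded. The submitters' processing notes list featureCounts, STAR 2.7.10a, FastQC 0.11.5, R 4.2.2 and the build mm10. Every listed gene reached 32 counts or more in some library. Library totals of 21990959 to 40178173 counts set the precision of low genes.

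Groups came from genotype and time in the labels. filterByExpr kept 13630 genes, which edgeR 4.0.16 (R 4.3.3) fitted once over 7 groups, with TMM factors, the robust quasi-likelihood test and Benjamini-Hochberg adjustment at 0.05. CPM carry the TMM factors. The SE given was derived from the edgeR test, as the absolute log2 fold change over the square root of the F statistic, and was not fitted separately. GENCODE vM21 gave symbols and positions. As alternatives, other factors (RLE, upper quartile), other tools (DESeq2 1.42.0, and voom with quality weights in limma 3.58.1), testing unfiltered genes, keeping genes that reach CPM 5 in 3 libraries, subsets of libraries, a replicate block and each library left out were run. The fits were first tested on simulated data. Members and lists were chosen with earlier results of these data known. The text names fixed IL-1 and JAK2 genes, called genes, up to 4 genes of lowest p per list and genes absent or extreme in Il1bKO_4w 5; Gm4951, Cxcl10, Pf4 and the lineage markers were chosen after their values were seen. Some genes are not reported here.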

Additional observations from a re-analysis of the deposited data

Results flagged for a closer look

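In 2 genes the Il1b difference itself differed between 4 and 2 weeks, by the interaction test in edgeR. For Gm4841 the difference of the log2 fold changes was -3.68 (SE 0.59, adjusted p = 0.0375), with 3 of 3 Il1bKO_4w libraries below every VF_4w library. For 1810020O05Rik it was -8.38 (adjusted p = 0.0391), a fitted value against libraries with 0 reads, which depends on the prior count. For the 17 called genes, no library stood apart within VF_2w or Il1bKO_2w, which made 34 checks of 4 libraries each. Groups of 3, which include both 4-week groups, were too small for that check.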

How the results depend on the processing

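The 17 calls between Il1bKO_4w and VF_4w stayed within 1.5 times under RLE factors, upper-quartile factors, no filter and the CPM filter. They became 375 in DESeq2, 0 in limma voom, in the 2 groups alone and in the 4-week libraries alone, and 9 without Il1bKO_4w 5 and VF_4w 6. Leaving out 1 library at a time gave 5 to 225. The 2-week comparison (1 call) gave 15 in DESeq2, 11 in limma voom, 7 in the compared groups alone, 3 without the same 2 libraries and 0 to 0 with each library left out. The time difference (2 calls) gave 51 in DESeq2, 0 in limma voom, 1 with the CPM filter, 0 in the compared groups alone, 0 without the 2 libraries and 0 to 22 with 1 left out. The direct comparison with the libraries labelled Il1r1KO_4w (16 calls) gave 281, 2, 0 in the compared groups and 0 in the 4-week libraries alone, 5 without the 2 libraries and 10 to 365 with 1 left out. Same-numbered libraries did not deviate together (r 0.0184, -0.0325 and 0.032, beside -0.0639 to 0.0679 for unlike numbers). With 3 libraries a group, this check cannot exclude a pairing by number. With the replicate block the counts were 7, 0, 0 and 5. Irf1 (-0.78) ranged from -1.1 to 0.03 with 1 library left out, highest without VF_4w 6. The cause was not tested. Where a group keeps 2 libraries, its spread is taken from the pooled fit. Low genes such as Dll4 rest on 21 to 153 reads a library, without molecular identifiers.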
